A study of Mus musculus with 6 samples.

Results

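The 9 genes followed here belong to the DNA methylation machinery and were measured in the hypothalamus of obese mice: the writers Dnmt1, Dnmt3a and Dnmt3b, the erasers Tet1, Tet2 and Tet3, and the readers Uhrf1, Mbd1 and Mbd2. Every probe that the array files name by 1 of these 9 symbols was taken, which gave 26 of 56605 probes, while the 9 genes stand among 37074 gene names. The tissue came from male C57BL/6J DIO mice, that is, mice with obesity induced by a diet of 60 kcal% fat, which the methods start at an age of 6 weeks and continue for 16 weeks. Both groups shared this diet. One received vehicle (dose 0, n = 3 arrays) and the other received GSK-J4 at 30 mg kg−1 (n = 3 arrays), with a different mouse for each of the 3 experiments. GSK-J4 inhibits the Kdm6 demethylases, which remove the repressive histone mark H3k27me3. The description of the arrays places the tissue at 4 d after exposure, whereas the methods describe daily injections over 21 d and collection at ZT 6 h (zeitgeber time, counted from lights on). The model has no genetic change, and the RNA was that of whole tissue, so that fewer cells of a type and less RNA per cell cannot be told apart. The comparison asks which transcripts of this machinery differed between the GSK-J4 and vehicle arrays.

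DNA methylation in mammals is placed mostly on cytosines followed by guanine (CpG). Dnmt3a and Dnmt3b are the de novo methyltransferases, while Dnmt1 copies the existing pattern onto the new strand after replication and is guided there by Uhrf1, which binds hemimethylated CpG. The Tet enzymes are dioxygenases that oxidize 5-methylcytosine to 5-hydroxymethylcytosine and further, a mark that is abundant in neurons. Mbd1 and Mbd2 carry a methyl-CpG-binding domain and recruit repressor complexes to methylated DNA. In the adult brain Dnmt1 and Dnmt3a are both expressed in neurons, although most of these no longer divide.

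Several features of the whole data set touch every value below. The 3 vehicle arrays share slide 1 and the 3 GSK-J4 arrays share slide 2, and the effects of slide and treatment cannot be told apart. The 75th percentile of the signal before normalization was 788 to 916 on the vehicle arrays and 407 to 461 on the GSK-J4 arrays, with 62.8% to 63.6% and 57.7% to 58.7% of the probes well above background. The labelled tissue was checked against 9 markers of hypothalamic nuclei, of which 5 were well above background on all 6 arrays. Pomc and Npy among them were called higher in GSK-J4, by 0.85 (limma adjusted p = 0.022) and 0.42 (limma adjusted p = 0.0267). Agrp, Oxt and Hcrt were higher in mean and Nr5a1 lower (-0.30, limma adjusted p = 0.549), and none of these was called. Of the 2 markers of oligodendrocyte precursors, Cspg4 was called higher by 0.52 (limma adjusted p = 0.0287). The other, Pdgfra, gave -0.10 (limma adjusted p = 0.439) and was not called. Agrp was above background on 5 arrays, Avp and Pmch on 3 arrays each, and Sim1 on none. The summed signal of the 9 hypothalamic markers was 3330 to 3470 on the vehicle arrays and 4400 to 5050 on the GSK-J4 arrays, and its part in the results was not tested. This sum is on the linear scale and mostly follows Npy, the brightest of the 9, with a mean log2 signal of 11.52 for vehicle and 11.94 for GSK-J4. All 5 neuronal, 5 astrocyte, 5 oligodendrocyte and 5 microglia markers were above background on every array, and none of these 20 genes was called. Vehicle replicate 1 stood apart in the 5 markers of choroid plexus and ependyma, with a summed signal of 95700 against a lowest vehicle array of 2800 and 2800 to 11300 on the GSK-J4 arrays, and 0 of the 5 were called.

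The probes are 60 bases long, and they differ in base composition and in the part of the transcript they read. The sequences of the probes on which the results turn are given 5′ to 3′ with G and C in capitals, because the difference between the groups followed GC content over the whole array. The Dnmt1 probe, with 55% GC, spans 369 bases of mm9 on the minus strand (chr9:20711973-20712341), so that it crosses an intron. The Tet3 and Tet1 probes printed lie on the minus strand at chr6:83319720-83319779 and chr10:62301856-62301915, and a Tet2 probe at chr3:133129701-133129760, also on the minus strand.
Dnmt1 A_51_P195573: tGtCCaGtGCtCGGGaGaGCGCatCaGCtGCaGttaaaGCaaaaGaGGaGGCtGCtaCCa
Tet3 A_55_P2175260: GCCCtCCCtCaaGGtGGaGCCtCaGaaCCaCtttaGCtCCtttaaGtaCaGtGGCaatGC
Tet1 A_55_P2123002: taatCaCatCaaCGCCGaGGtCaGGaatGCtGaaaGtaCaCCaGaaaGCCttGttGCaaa
Tet2 A_55_P2745200: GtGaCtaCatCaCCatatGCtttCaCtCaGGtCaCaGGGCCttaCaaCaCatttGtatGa

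Of 4 further probes 30 bases are given, to set different probes of 1 gene beside each other. Both Dnmt3a probes belong to the transcript record NM_007872 on the plus strand, where A_52_P169048 starts at base 3518 (chr12:3908227-3908286, 40% GC) and A_55_P2178084 at base 9611 (chr12:3914320-3914379, 35% GC). Tet2 A_55_P2081303 starts at base 9011 of NM_001040400 (chr3:133126751-133126810, 35% GC), downstream of the Tet2 probe printed in full, which starts at base 6061 of the same record and has 43.3% GC. Tet2 A_55_P2074075 belongs to another record, ENSMUST00000196292 (chr3:133176421-133176479, 36.7% GC). Its last 30 bases are shown because they hold AATAAA, the usual polyadenylation signal, which was found on the probe strand of 10.6% of the 34444 probes tested and of 1 of the 26 member probes.
Dnmt3a A_52_P169048, first 30 bases: CtatatatCtCtttGGttGtCtCtaGCCtG
Dnmt3a A_55_P2178084, first 30 bases: atGttGatGtGGaatCttaCtttCaaatGG
Tet2 A_55_P2081303, first 30 bases: GCttaCttCCtGaGattttGGCtttGttta
Tet2 A_55_P2074075, last 30 bases: aGttGatCttaataaaGaCCtGtttGCttt

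Among the members, Dnmt1 and 1 of the Dnmt3a probes rose in the GSK-J4 arrays, by 0.64 and 0.70 on the log2 scale, and no member probe fell past the threshold, an adjusted p no higher than 0.05. Testing required a signal well above background on each of the 3 arrays in either group, which held for 20 of the 26 member probes and for at least 1 probe of each of the 9 genes. Of these 20, 18 were above background on all 6 arrays, and 2, of Tet2 and Mbd2, passed through the vehicle arrays alone, a way of entering that favours lower values in GSK-J4. By limma with Benjamini-Hochberg adjustment over the 34444 probes tested, 2 of the 20 (10%) were higher, beside 8.39% of all probes tested, and 0 were lower, beside 8.42%. Before adjustment, with a limma p up to 0.05, 5 were higher and 4 lower. These are 9 of the 20, beside 12577 of the 34444 probes tested, both directions together. The methods ask for a 1.5-fold change with an unadjusted p up to 0.05, and by limma 2 were higher, beside 4.79% of all probes, and 3 were lower, beside 7.86%. Of these 3, 2 are the Tet2 and Mbd2 probes that passed through the vehicle arrays alone, so this count is biased towards lower values. The GSK-J4 and vehicle values were fully separate for 8 higher member probes (40%) and 5 lower ones (25%), where the shares over all probes tested were 24.5% and 21.2%. The 5 lower ones include the 2 probes that passed through the vehicle arrays alone. The median log2 difference was 0.11 over the 20 member probes and 0.02 over all probes tested. The calls rest on all 3 vehicle arrays, since without vehicle replicate 1, 2 or 3 the number of member probes called was 0 in each case, and over all probes 1 to 2 were called higher and 4 to 12 lower. Of all calls 49.9% were higher, and 39.7% after the GC correction described with the probes' base composition.

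**Figure D1:**
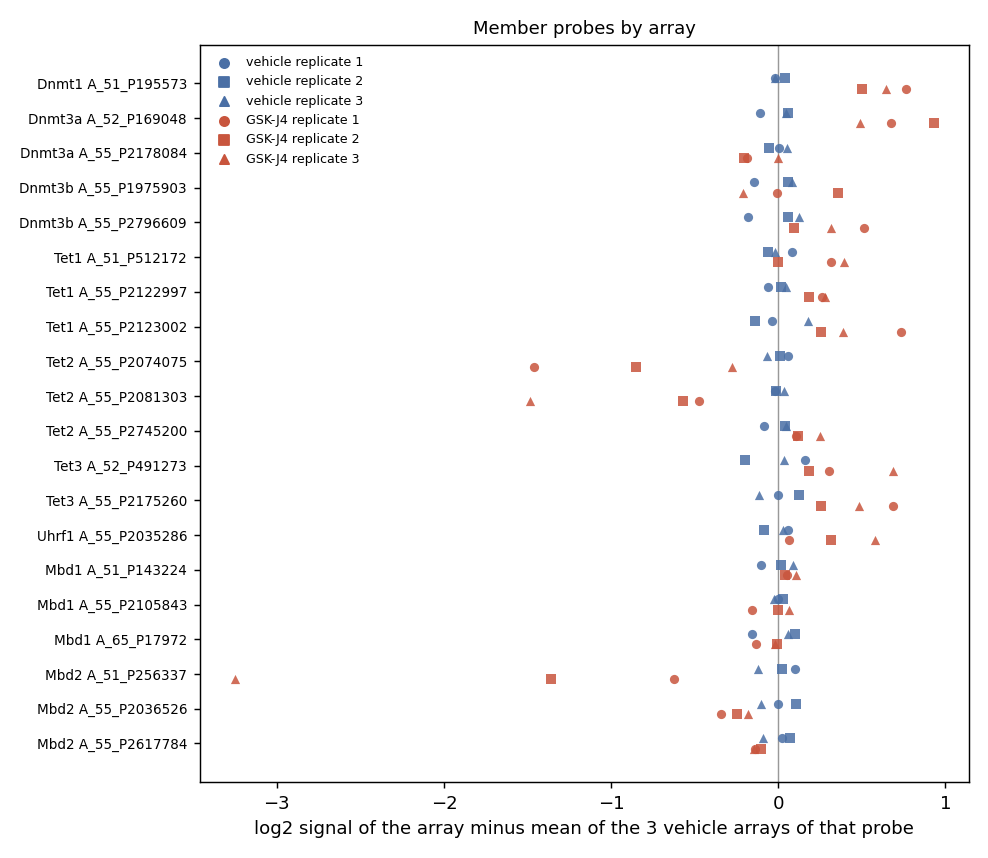
Each row is 1 of the 20 member probes tested and each symbol is 1 array, 3 vehicle (blue) and 3 GSK-J4 (red). The horizontal axis is the normalized log2 signal minus the mean of the 3 vehicle arrays for that probe. The GSK-J4 symbols of Dnmt1 and Dnmt3a A_52_P169048 all lie to the right of the vehicle symbols, and those of Tet2 A_55_P2074075, Tet2 A_55_P2081303 and Mbd2 A_51_P256337 lie to the left and are widely spread.

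Among the writers, Dnmt1, the maintenance methyltransferase, has 1 probe. Its normalized log2 signal was 8.40, 8.46 and 8.40 on the vehicle arrays and 9.18, 8.93 and 9.06 on the GSK-J4 arrays. All 3 GSK-J4 arrays were higher and the groups did not overlap (p = 0.1 in a two-sided exact permutation test, the lowest value that 3 arrays against 3 can give). The means were 8.42 ± 0.03 and 9.06 ± 0.13 (SD, n = 3 each), a log2 difference of 0.64 (standard error 0.09, limma adjusted p = 0.0174) or 1.55-fold. With the trend on probe GC content removed within each array, the difference was 0.40 (limma adjusted p = 0.0416), which is less than 1.5-fold. Without vehicle replicate 1, 2 or 3 it stayed between 0.62 and 0.66, with limma adjusted p from 0.0639 to 0.0737. Markers of cycling cells were low, with 3 of 5 above background on all arrays and Cdk1 above it on 1 array only. Their summed signal was 345 to 362 on the vehicle arrays and 371 to 419 on the GSK-J4 arrays, 0 of the 5 were called, and their part in the result was not tested.

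Dnmt3a, the de novo enzyme best known from neurons, has 4 probes, of which 2 could be tested and 1 was called. Probe A_52_P169048 gave 5.19, 5.35 and 5.34 on the vehicle arrays and 5.97, 6.22 and 5.78 on the GSK-J4 arrays. Every GSK-J4 array was above every vehicle array, with a log2 difference of 0.70 (standard error 0.13, limma adjusted p = 0.0269) or 1.62-fold. After the GC correction it was 0.73 (limma adjusted p = 0.0342), and with normexp background correction 0.31 (limma adjusted p = 0.0298). The call was lost without vehicle replicate 1, 2 or 3 and without GSK-J4 replicate 1, where the difference stayed between 0.64 and 0.73 and the limma adjusted p was 0.0622 to 0.0868. Probe A_55_P2178084, which lies further downstream, gave 11.77, 11.71 and 11.81 for vehicle and 11.58, 11.56 and 11.76 for GSK-J4, and the groups overlapped. Its log2 difference was -0.13 (95% interval -0.34 to 0.08, limma adjusted p = 0.319). The difference between these 2 probes within an array, taken as A_52_P169048 minus A_55_P2178084, shifted by 0.83 from vehicle to GSK-J4, and the groups did not overlap (exact permutation test, two-sided p = 0.1, adjusted p = 0.367 over 11 such pairs of member probes). The size of this shift depended on the processing: it was 0.72 after the GC correction, 0.56 with 75th percentile scaling and 0.49 with normexp. The remaining Dnmt3a probes, A_55_P2719189 and A_55_P2719195, were never well above background.

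Dnmt3b, the second de novo enzyme, was measured on 2 probes, neither of them called. Probe A_55_P2796609 gave 6.01, 6.25 and 6.32 for vehicle and 6.71, 6.29 and 6.51 for GSK-J4, a log2 difference of 0.31 (95% interval -0.04 to 0.66, limma adjusted p = 0.174). Probe A_55_P1975903 gave 5.07, 5.27 and 5.30 for vehicle and 5.20, 5.57 and 5.003 for GSK-J4, with a difference of 0.04 (95% interval -0.36 to 0.44, limma adjusted p = 0.863). On both probes the groups overlapped. The third probe, A_55_P2934614, was never well above background.

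**Figure D2:**
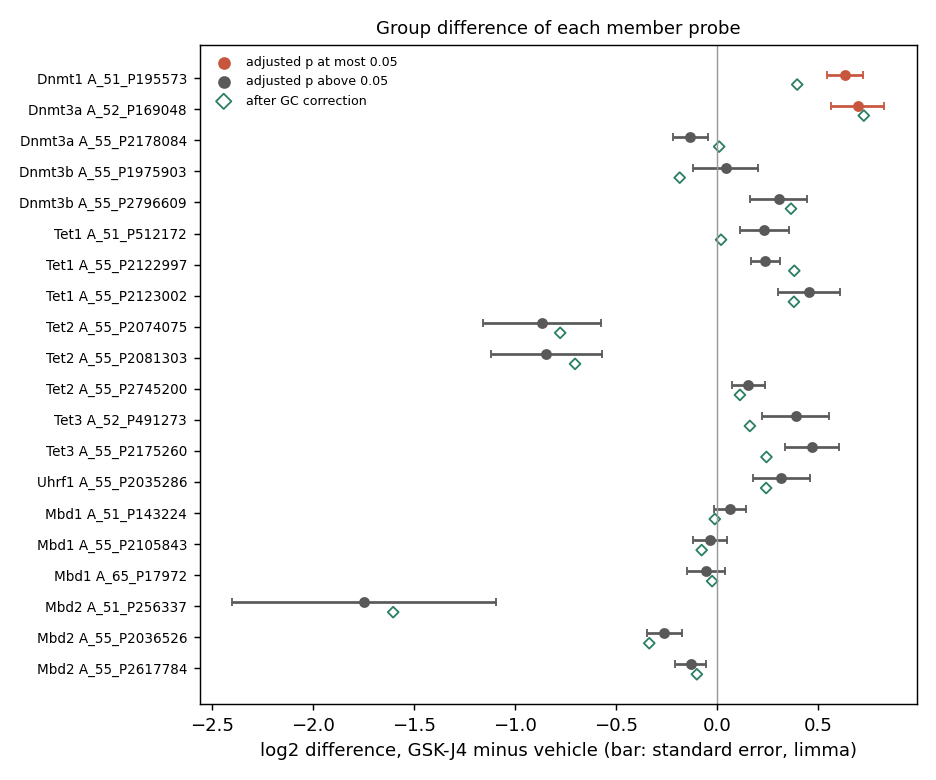
Each row is 1 member probe tested. Filled circles give the log2 difference, GSK-J4 minus vehicle (3 arrays each), with bars of 1 standard error from limma, and open diamonds give the difference after the GC correction. The 2 red circles, Dnmt1 at 0.64 and Dnmt3a A_52_P169048 at 0.70, are the probes called, and the Dnmt1 diamond lies at 0.40.

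The erasers gave 0 calls on 8 probes, beside 8.39% higher and 8.42% lower over all probes tested. The groups did not overlap on 5 higher and 2 lower eraser probes, beside 24.5% and 21.2% over all probes, and 1 of the 2 lower ones passed through the vehicle arrays alone. Tet1, which carries a CXXC domain that binds unmethylated CpG, was higher in mean on all 3 probes. Probe A_55_P2122997 gave 8.04, 8.12 and 8.15 for vehicle and 8.36, 8.28 and 8.39 for GSK-J4, a difference of 0.24 (standard error 0.07, limma adjusted p = 0.0715). The GC correction raised this value to 0.38 and put it past the threshold (limma adjusted p = 0.0319). Probe A_55_P2123002 gave 6.14, 6.04 and 6.36 against 6.91, 6.43 and 6.57, a difference of 0.46 (standard error 0.15, limma adjusted p = 0.0924). The groups were separate on these 2 probes and overlapped on A_51_P512172, where the difference was 0.24 (limma adjusted p = 0.217) and 0.02 after the GC correction.

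Tet3, the Tet enzyme known from the zygote and from neurons, was higher in mean on both of its probes. Probe A_55_P2175260 gave 5.49, 5.62 and 5.38 on the vehicle arrays and 6.18, 5.75 and 5.98 on the GSK-J4 arrays. The groups did not overlap, and the difference was 0.47 (95% interval 0.15 to 0.80, limma adjusted p = 0.0616). Without GSK-J4 replicate 2 it was 0.58 and was called (limma adjusted p = 0.0461). Probe A_52_P491273 gave 5.12, 4.76 and 4.99 against 5.26, 5.14 and 5.64, a difference of 0.39 (limma adjusted p = 0.147). Both probes have 53.3% GC, and after the GC correction the values were 0.25 and 0.16.

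Tet2, an eraser without a CXXC domain of its own, was lower in mean on 2 probes and higher on the third. Probe A_55_P2081303, further downstream in NM_001040400, gave 10.38, 10.38 and 10.43 on the vehicle arrays and 9.92, 9.83 and 8.91 on the GSK-J4 arrays. Every GSK-J4 array was lower, replicate 3 by the most, and the SD was 0.03 for vehicle and 0.56 for GSK-J4. The log2 difference was -0.84 (standard error 0.27, limma adjusted p = 0.0853), or 1.80-fold lower. Without GSK-J4 replicate 3 it was -0.52 and was called (limma adjusted p = 0.0316). Probe A_55_P2074075 of the other record gave 5.64, 5.59 and 5.51 against 4.12, 4.73 and 5.30, with replicate 1 lowest and not well above background there. This probe entered through the vehicle arrays alone, which favours lower values, and was not called in the main setting. As a description, its difference was -0.86 as deposited, -0.25 with normexp background correction, -0.56 without GSK-J4 replicate 1 and -1.16 without GSK-J4 replicate 3. By contrast, probe A_55_P2745200, upstream in NM_001040400, gave 7.56, 7.68 and 7.69 for vehicle and 7.75, 7.76 and 7.89 for GSK-J4, a difference of 0.16 (95% interval -0.04 to 0.36, limma adjusted p = 0.213).

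The Tet2 probes were also set against each other within each array. The signal of A_55_P2745200 minus that of A_55_P2081303 was -2.82, -2.70 and -2.74 on the vehicle arrays and -2.17, -2.06 and -1.02 on the GSK-J4 arrays, which did not overlap. The shift was 1.001 (exact permutation test, two-sided p = 0.1, adjusted p = 0.367 over 11 pairs), which does not pass the threshold, and it was 0.82 after the GC correction, 0.84 with 75th percentile scaling and 0.96 with normexp. Of the 11 pairs in 7 genes, 3 were separate between the groups, those of Dnmt3a and Tet2 named here and 1 of Mbd2, where the shift was -0.13. The share of separate pairs over the whole array was not computed, so this count is only a description. Of single probes tested, 24.5% were separate and higher and 21.2% separate and lower. No pair of Tet1, Tet3, Dnmt3b or Mbd1 was separate.

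**Figure D3:**
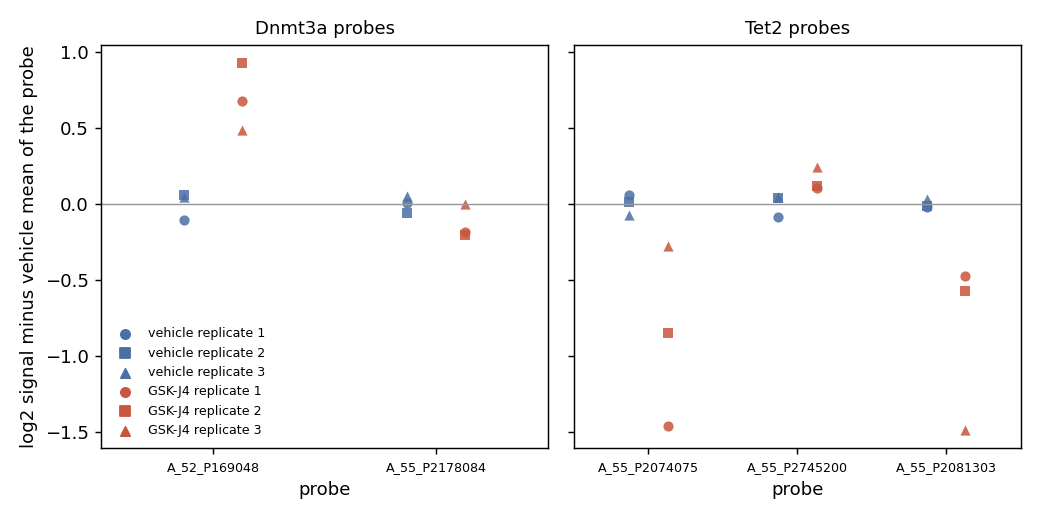
The vertical axis is the normalized log2 signal minus the vehicle mean of the probe, with 1 symbol for each of the 3 vehicle (blue) and 3 GSK-J4 (red) arrays, and the probes tested are placed from upstream to downstream. For Dnmt3a the upstream probe is higher in GSK-J4 and the downstream probe is not separate. For Tet2 the middle probe lies slightly above 0 in GSK-J4 while the other 2 lie below.

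The readers gave 0 calls on 7 probes, beside 8.39% higher and 8.42% lower over all probes tested. Uhrf1, the cofactor that brings Dnmt1 to hemimethylated DNA, gave 6.205, 6.06 and 6.17 on the vehicle arrays and 6.21, 6.46 and 6.72 on the GSK-J4 arrays for probe A_55_P2035286. The lowest GSK-J4 array lay just above the highest vehicle array, and the difference was 0.32 (95% interval -0.03 to 0.67, limma adjusted p = 0.164). Its other probe, A_66_P120074, was never well above background. The cycling markers named beside Dnmt1 apply here too.

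Mbd1, a repressor that binds methylated and, by a CXXC domain, also unmethylated CpG, had differences near 0 on its 3 probes tested. Probe A_51_P143224 gave 10.26, 10.37 and 10.44 for vehicle and 10.41, 10.40 and 10.46 for GSK-J4, a difference of 0.07 (95% interval -0.13 to 0.26). Probe A_55_P2105843 gave -0.03 (95% interval -0.24 to 0.18) and A_65_P17972 gave -0.05 (95% interval -0.29 to 0.18), with limma adjusted p from 0.575 to 0.806 over the 3 probes. Their groups overlapped, and the sign of the first 2 values depended on the processing. Probe A_55_P2737682 was above background on 2 vehicle arrays and 1 GSK-J4 array and was not tested.

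Mbd2, a subunit that targets the NuRD corepressor to methylated DNA, was lower in mean, with groups that did not overlap, on both probes that were above background on all 6 arrays, and neither was called. Over all probes tested, 21.2% were lower with groups that did not overlap. Probe A_55_P2036526 gave 9.78, 9.89 and 9.68 on the vehicle arrays and 9.43, 9.53 and 9.60 on the GSK-J4 arrays, a difference of -0.26 (standard error 0.09, limma adjusted p = 0.0956). Probe A_55_P2617784 gave 11.43, 11.48 and 11.32 against 11.27, 11.30 and 11.26, a difference of -0.13 (limma adjusted p = 0.263). These are small steps, of 1.20-fold and 1.09-fold. Probe A_51_P256337, of the record ENSMUST00000127260, gave 5.35, 5.27 and 5.13 against 4.62, 3.89 and 1.998 and was well above background on 1 of the 3 GSK-J4 arrays only. This probe entered the test through the vehicle arrays alone, so its lower values are given as a description. The difference in log2 signal was -1.74 as deposited and -0.44 with normexp background correction, -0.99 without GSK-J4 replicate 3, and it was not called in the deposited values. The fourth probe, A_55_P2716187, was never well above background. The 6 member probes that were not tested ranged from 1.84 to 5.24 in normalized log2 signal.

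The differences followed the GC content of the probes over the whole array, and the members were spread over its range. Of the 5376 probes tested with over 50% GC, 21.5% were called higher and 1.41% lower, while of the 14396 with at most 40% GC, 2.81% were called higher and 13.4% lower. All 5 member probes with over 50% GC, those of Dnmt1 and Tet3 and 1 each of Dnmt3b and Tet1, were higher in mean, with a median difference of 0.39 beside 0.24 for all such probes. Of the 9 with at most 40% GC, 6 were lower and 3 higher, with a median of -0.13 beside -0.11. Dnmt3a A_52_P169048, with 40% GC, and Tet1 A_55_P2122997, with 35% GC, were higher against the trend of their class. The Tet2 probes A_55_P2081303 and A_55_P2074075 gave -0.70 and -0.77 after the correction.

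**Figure D4:**
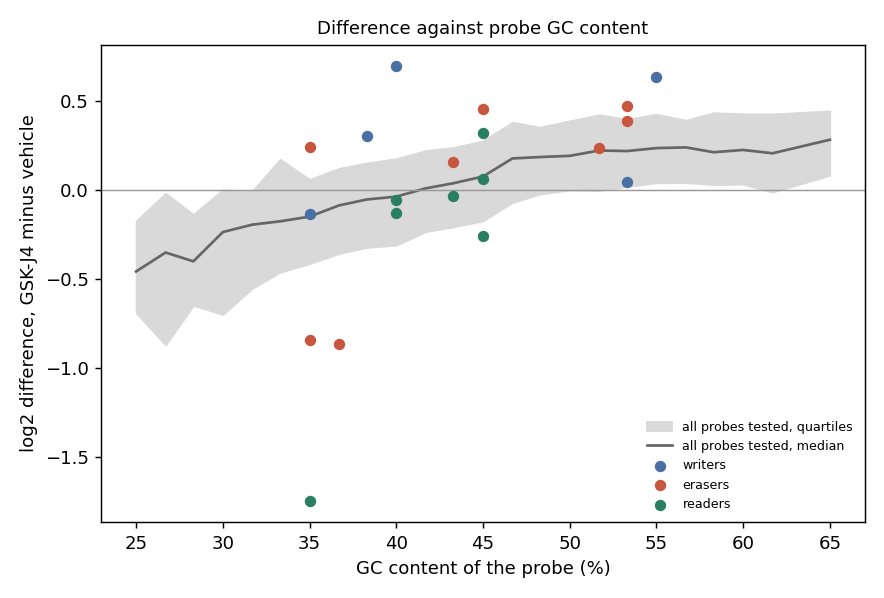
The horizontal axis is the GC content of the probe in percent and the vertical axis the log2 difference, GSK-J4 minus vehicle. The grey line and band are the median and quartiles of all probes tested at each GC content with at least 50 probes, and the points are the 20 member probes coloured by role. Dnmt3a at 40% and 0.70 and Dnmt1 at 55% and 0.64 lie above the band, and the Tet2 probes at -0.84 and -0.86 and 1 Mbd2 probe at -1.74 lie below it.

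A list of further genes of the pathway held 33 symbols, of which 32 have probes on the array, 80 in all, and 63 of these probes were tested. Of the 63, limma called 2 higher (3.17%, beside 8.39% of all probes tested) and 4 lower (6.35%, beside 8.42%) after adjustment, and their median log2 difference was -0.03. Ogt, the O-GlcNAc transferase that binds Tet proteins, fell on probe A_51_P261107, from 11.10, 11.05 and 11.23 to 10.31, 10.60 and 10.65. Its difference was -0.61 (standard error 0.12, limma adjusted p = 0.0286), while its other probes gave -0.44 (limma adjusted p = 0.119) and -0.29 (limma adjusted p = 0.474). Pcna, the replication clamp that binds Dnmt1, fell by 0.28 on probe A_51_P396351 (limma adjusted p = 0.0486). The rises were those of Zbtb38, a zinc finger reader of methylated DNA, with 0.44 on 1 of its 4 probes tested (A_55_P2487934, limma adjusted p = 0.0418), and of Dmap1, a Dnmt1-associated protein, with 0.35 on 1 of 2 probes (A_51_P233788, limma adjusted p = 0.0274). On each of the 4 called probes named here the groups did not overlap. Over all probes tested, 24.5% were higher and 21.2% lower with groups that did not overlap. The 4 probes were picked by their calls on the same values, so this adds no support. After the GC correction Zbtb38 (0.43, limma adjusted p = 0.0487) and Pcna (-0.36, limma adjusted p = 0.0442) were past the threshold, while Ogt (-0.46, limma adjusted p = 0.0518) and Dmap1 (0.11, limma adjusted p = 0.292) were not.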

How the data were processed

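Hypothalamic RNA of 6 mice was measured on 6 Agilent SurePrint G3 arrays in 1 colour. The authors extracted a background-subtracted intensity per spot with Agilent's Feature Extraction software (10.7.1.1 in the file headers) and deposited it with quality flags. The authors further deposited log2 values, which, per the methods, were quantile normalized with GeneSpring 14.8. Each column of these values has a median of 5.75 and correlated at 0.9992 or above with that array's log2 intensity, with slopes of 0.97 to 1.03, so that the values are log2 signal that was not centred by probe. The members' values are taken from these columns, all of which belong to 1 array (0 unassigned). The files place probes on mm9. RefSeq promoters are from a table on GRCm38.p6.

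A probe was tested when the flag for well above background was set on all 3 arrays of at least 1 group. Groups were compared probe by probe with lmFit and eBayes of limma 3.58.1 in R 4.3.3 (with data.table, version 1.17.8), two-sided and without covariates, with Benjamini-Hochberg adjustment across all 34444 tested probes. Single values were also compared with an exact permutation test over the 20 orders of 6 arrays. No test compared the levels of different probes with each other. Differences between 2 probes of a gene within an array were compared between the groups. Marker signals were summed and ranked by brightness only as a description. The GC correction removed the lowess trend (span 30%) of each array's deviations on probe GC content. The members and gene lists were chosen with earlier results of these data known. All probes of the 9 members are named, and of the pathway list those called, except 2 that are not reported here. Mice differ between arrays, but GSK-J4 and slide are confounded. The number of arrays limits the precision. Correlations within a group were 0.978 to 0.995 across probes tested. On simulated data for this comparison, where 200 of 34444 probes carried a log2 change of 1, limma found 51% of these, and 4% of its calls were false. The simulated noise was independent between probes and held no GC trend and no slide effect, so the 4% does not carry over to the measured arrays. No spot of a member probe carried an outlier flag (0 on each array). Alternatives were the scanner signals with quantile normalization, 75th percentile scaling or normexp (offset 50), other filters and variance models, array weights, the methods' t-test and thresholds, 1 probe per gene, the replicate number as a block, and leaving out each array. The log2 columns hold no comparison made by the authors.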

Additional observations from a re-analysis of the deposited data

How the results depend on the processing

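The number of arrays, the shared slide of each group and the lower signal over background of the GSK-J4 arrays limit these results. Of 387 values of the 20 member probes under the alternatives, 354 kept their direction and their side of the threshold, 14 lost a call, 6 gained one and 13 changed sign. The calls of Dnmt1 (6 alternatives) and Dnmt3a A_52_P169048 (8 alternatives) account for the 14. Member probes higher, 2 in the main setting, were 1 with the t-test with equal variances and with 1 probe per gene, and 0 with the t-test without equal variances. Member probes lower, 0 in the main setting, were 1 with normexp and with array weights and 3 at the methods' thresholds with limma. At the methods' thresholds with the test without equal variances, 0 were lower. The normexp call is Mbd2 A_51_P256337 and the array weights call Tet2 A_55_P2074075. Both entered the test through the vehicle arrays alone, which favours lower values, and both are among the 3. Leaving out each array gave 0 to 3 member probes higher and 0 to 2 lower. Tet2 A_55_P2074075 is 1 of the 2 lower, called without GSK-J4 replicate 3. The pathway list, with 2 probes higher and 4 lower, gave 5 and 7 with 75th percentile scaling, 1 and 2 with no filter, with the positive and significant flag and with the GC correction, 0 and 0 with the t-test without equal variances, and 0 and 2 at the methods' thresholds with that test. It gave 0 higher at the methods' thresholds with limma and 1 higher with the t-test with equal variances and with 1 probe per gene. Leaving out each array gave 0 higher in each case and 0 to 5 lower. Over all probes tested, 2889 were higher and 2899 lower. The number higher was 5032 with 75th percentile scaling, 1793 with no filter, 1465 with the GC correction, 1831 and 56 with the t-tests with and without equal variances, and 1651 and 1139 at the methods' thresholds with limma and with the t-test without equal variances. The number lower was 1484 and 37 with these t-tests, 1799 at the methods' thresholds with the t-test without equal variances, and 1723 with 1 probe per gene. Leaving out each array gave 1 to 2076 higher and 4 to 2481 lower. The share of higher calls moved from 49.9% to 39.7% with the GC correction. The cause of these changes was not tested.

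Deviations of samples with the same replicate number were weakly correlated (r = 0.00717, 0.028 and 0.084). Samples with different numbers gave r from -0.0997 to 0.0954. With 3 arrays per group, these values cannot settle whether samples share more than a number. With the replicate block, with or without the GC correction, 0 probes were called among the members, the pathway list and all probes. By limma 11069 probes, 9 of them members, were at an unadjusted p of at most 0.05 with the replicate block.

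Signs changed only for 4 probes near 0. Dnmt3b A_55_P1975903 was -0.088 with 75th percentile scaling, -0.18 with the GC correction with and without the replicate block, and between -0.11 and 0.17 with each array left out. Dnmt3a A_55_P2178084 was 0.0020 when arrays were scaled to the 75th percentile and 0.012 after GC correction with and without the block. Mbd1 A_51_P143224 was -0.015 with normexp and -0.0092 with the GC correction with and without the block. Mbd1 A_55_P2105843 was 0.022 with 75th percentile scaling and between -0.081 and 0.031 with each array left out.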

Other observations

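Uhrf2, the paralog of Uhrf1, was chosen for mention after its values were seen. All 5 of its probes were lower in mean in the GSK-J4 arrays, with log2 differences from -0.13 to -0.89. Of these 0 were called, beside 8.42% called lower over all probes tested, and the limma adjusted p was 0.0594 for the largest. The 5 probes have 30% to 45% GC. After the GC correction their differences were -0.20 to -0.75, with limma adjusted p from 0.0871 to 0.23. Hells, a chromatin remodeller needed for DNA methylation, was lower by 0.67 on probe A_51_P351970 and was not called. This probe was well above background on all 3 vehicle arrays and on 1 of the 3 GSK-J4 arrays. It entered the test through the vehicle arrays alone, which favours lower values, so its difference is given as a description. Hells too was chosen after its values were seen.

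Most promoter windows listed for 7 of the 9 members are rich in CpG, and none is listed for Mbd1 or Mbd2. In the RefSeq table (GRCm38.p6), which holds 12 windows of 300 bases for 7 of the 9 members, from 250 bases before to 50 after a start, 11 windows hold at least 10 CpG, compared with 43.5% of the 32851 windows of all genes. The Tet2 window holds 57 CpG, the Tet1 window 17 and the lowest, a Dnmt1 window, 2, and the median over all windows is 7. Dnmt1, Dnmt3a and Uhrf1 each enter with several windows.

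As a description over only 6 arrays, the signal most like that of Tet2 A_55_P2081303 among 30959 probes of other genes above background on all arrays was that of Adrbk2 (Pearson r = 0.9989), followed by Homer1 (0.9973) and Pgrmc2 (0.9962). For Dnmt3a A_55_P2178084 the nearest were Spast (0.9951), Rap2b (0.9883) and Bcl11a (0.9881), and for Mbd2 A_55_P2617784 they were Klc1 (0.9874), Tiparp (0.9873) and Arhgef11 (0.9861). The arrays share their slide within a group.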
